A study of Drosophila melanogaster with 42 samples.

Results

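The genotype delta PCP carries a deletion in the part of the Fat intracellular domain assigned to planar cell polarity, and its 5 libraries (PCP 1 to PCP 5) were compared with the 2 wild-type libraries of the same sequencer, 7 of the 42 libraries in the series. Members were taken by genotype label and sequencer, the NovaSeq X Plus. All libraries were made from imaginal wing discs of third-instar Drosophila melanogaster larvae, and the library names give the wild type as w1118.csvd111. Further label groups used for comparison were 5 libraries of delta HpoC and 4 of delta HpoN+PH, both also deletions in Fat on the NovaSeq X Plus, and 3 wild-type libraries run on a NovaSeq 6000. The genotypes Fd5-5 (2 libraries) and delta D (3 libraries) were also run on the NovaSeq X Plus. They entered the fit that estimates the spread, and the correlations between labels. The labels give no sex, number of discs, temperature or zygosity, and no allele or agent beyond these names.

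Fat is a giant cadherin of the cell surface that binds the cadherin Dachsous on neighbouring cells. Its intracellular domain feeds both the Hippo pathway, which restrains the growth co-activator Yorkie, and planar cell polarity, the orientation of cells within the plane of an epithelium. In the larval wing disc, the sheet of cells that becomes the adult wing and notum, Four-jointed in the Golgi tunes Fat and Dachsous binding, and the myosin Dachs acts downstream. A separate core module of Frizzled, Dishevelled, Starry night, Van Gogh, Prickle and Diego polarises the wing hairs.

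The libraries of the comparison did not divide by genotype in their ribosomal RNA content. Counts on the 46 symbols containing rRNA made up 0.923% of all counts in PCP 1, 1.26% in PCP 2, 0.861% in PCP 3, 0.907% in PCP 4 and 16.1% in PCP 5. The 2 wild-type libraries of the same sequencer held 17.4% and 17.1%, and the 3 of the NovaSeq 6000 held 1.07%, 0.842% and 1.52%. PCP 5 therefore lay with the wild type of its sequencer and PCP 1 to PCP 4 with the wild type of the other one. No wild-type library of the NovaSeq X Plus lay below 3%, so PCP 1 to PCP 4 had no wild-type library of their own ribosomal RNA class on that sequencer. On it, genotype was set apart from class only in PCP 5 alone, or by a term whose size comes from the genotypes holding both classes and is taken to be the same in all of them. Total counts ran from 22926854 to 41989693 over the 7 libraries. A doubling of transcript length went with a log2 level shift of 0.22 in PCP 1, 0.29 in PCP 2, 0.07 in PCP 3 and 0.05 in PCP 4, but of -0.34 in PCP 5 and -0.33 and -0.39 in the 2 wild-type libraries. By mean Spearman correlation across 16122 genes, a description over genes that are not independent, PCP 5 was nearest to the wild type (0.969, against 0.933 with the other delta PCP libraries). PCP 1 and PCP 2 were nearest to delta HpoN+PH (0.964 and 0.956, against 0.955 and 0.948 with their own label), and only PCP 3 and PCP 4 were nearest to their own label. Whether any of these libraries carries a wrong label was not tested, so every value given for delta PCP is that of the libraries so labelled. Wing disc markers were present in all 7 libraries: nub, a POU-domain factor of the wing pouch, ran from 144 to 945 CPM (counts scaled to the effective library size), and wg, the Wingless ligand, from 137 to 265 CPM.

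**Figure D1:**
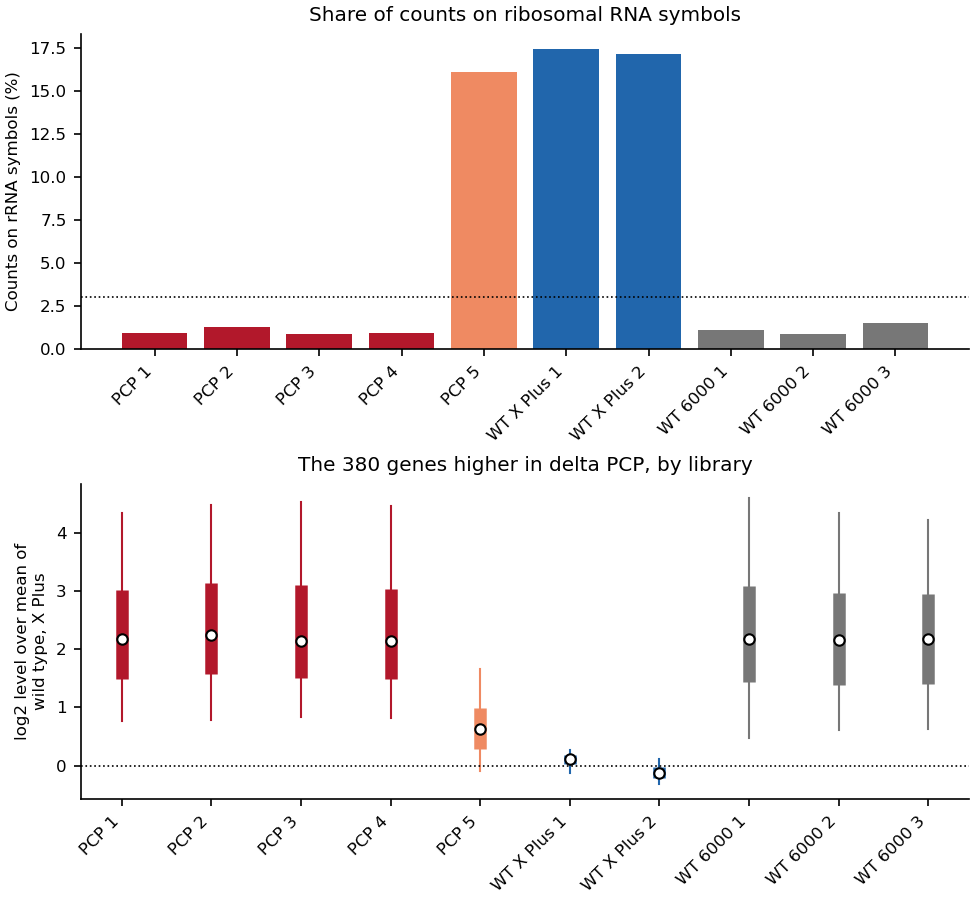
Top, bars give the share of counts on symbols containing rRNA (percent) in each delta PCP and wild-type library, with a dotted line at 3%. Bottom, for the 380 genes higher in delta PCP, the circle marks the median log2 level over the mean of the wild type of the NovaSeq X Plus, the thick bar the middle 50% of genes and the thin line the 5th to 95th percentile; PCP 5 has a median of 0.63, and the other delta PCP libraries 2.14 to 2.25.

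Against the wild type of the same sequencer, 389 of 10775 genes tested differed in delta PCP (3.61%; edgeR's quasi-likelihood test, adjusted p under 0.05). Of these, 380 were higher (3.53%) and 9 lower (0.0835%), and for 335 the groups did not overlap. Over all genes tested, all 5 delta PCP libraries lay above the wild type in 12.5% and below it in 13.5%. The rises had a median log2 fold change of 2.21, while the median over all genes tested was 0.01. PCP 5 was not part of the bulk of that rise. Over the 380 genes the median log2 level relative to the wild type was 2.18 in PCP 1, 2.25 in PCP 2, 2.14 in PCP 3, 2.15 in PCP 4 and 0.63 in PCP 5, and PCP 5 was the lowest delta PCP library in 344 of them. The same genes had a median of 2.17 in the wild type of the NovaSeq 6000, which was not part of the test and is set against the same 2 control libraries. Of the 389 genes, 355 also differed between the wild types of the 2 sequencers in the same direction, and 0 in the opposite one. That count comes from the fit of all 42 libraries (edgeR's quasi-likelihood test, adjusted p under 0.05). Both comparisons use the same 2 X Plus wild-type libraries, which by itself favours the same direction. The share of all genes tested that differed between the wild types is not given here. Longest annotated transcripts of the rises had a median of 3038 bases, against 1894 bases over all genes tested. With the trend on transcript length removed, 540 genes passed, 425 higher and 115 lower. Single libraries moved the count: 127 genes passed without wild-type library 1, 57 without wild-type library 2, and 2059 without PCP 5 (1035 higher and 1024 lower). Without 1 of PCP 1 to PCP 4 the count was 314 to 323. With a term for the class of ribosomal RNA in the fit, its size taken from the X Plus genotypes that hold both classes, 398 genes passed and 304 of the 389 were among them. In 69 called genes named here the call was lost without wild-type library 2 in 58 and without wild-type library 1 in 48. Calls in all 7 leave-one-out fits were held by CG32536, CG8854, ara, en, UQCR-C2, Med, Rab9, eIF3a, SF2, mor and Deaf1, and by 55 of the 389 genes in all.

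The deletion left transcripts of ft itself (2L:4198404-4221796) in all 5 libraries, at 594, 636, 358, 343 and 353 CPM in PCP 1 to PCP 5, against 371 and 328 CPM in the wild-type libraries. Values of PCP 3 to PCP 5 lay among those of the wild type and PCP 1 and PCP 2 above them, with a log2 fold change of 0.38 ± 0.46 (SE; adjusted p = 0.568). Gene counts cannot show whether a part of the transcript is missing, so this is no check of the deletion. The counts of list members given here and below stand beside 3.53% higher and 0.0835% lower over all genes tested. These shares are of the reported comparison, not of its alternatives. Counts without PCP 5 stand beside 1035 higher and 1024 lower of 10719 genes tested in that fit. In the Fat and Dachsous list 1 of 11 genes tested rose (9.09%) and none fell, and the list's median log2 fold change was 0.72. That gene was Fbxl7 (3R:15920898-15932887), a ubiquitin ligase subunit that binds Fat and acts downstream of it. Its level was 66.6, 80.9, 75.1, 71.2 and 6.75 CPM in PCP 1 to PCP 5, 7.16 and 8.22 CPM in the wild-type libraries and 72.7, 72.3 and 66.3 CPM in those of the NovaSeq 6000. PCP 5 was just below the wild type of its sequencer, and the other 4 were within or just above the range of the NovaSeq 6000 wild type, at a log2 fold change of 2.96 ± 0.64 (adjusted p = 0.0106, and 0.0679 with a term for the class of ribosomal RNA). The partner cadherin ds (2L:640013-714983) had a level of 1402, 1469, 900.4, 878 and 236 CPM, with 253 and 226 CPM in the wild type and 1551, 1413 and 1687 CPM in that of the NovaSeq 6000. Its fold change was 2.02 ± 1.06 on the log2 scale (adjusted p = 0.249), with PCP 5 inside the wild-type range. The myosin gene d (2L:8466817-8488671) was measured at 479.5, 543, 529, 530.0 and 247 CPM against 242 and 243 CPM, all 5 above the wild type but PCP 5 by little (log2 0.93 ± 0.52, adjusted p = 0.266). For the Fat and Dachsous kinase gene fj (2R:18232761-18236311), a target of Yorkie, values were 356, 289, 350.0, 307 and 362 CPM against 296 and 301 CPM. They overlapped (log2 0.15 ± 0.19, adjusted p = 0.583). The gene dco, whose casein kinase phosphorylates Fat, ran at 317, 301, 221, 215 and 13.4 CPM against 14.2 and 13.2 CPM, without passing the test (log2 3.96 ± 1.25, adjusted p = 0.101). No gene of the list passed without either 1 of the wild-type libraries.

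Among the 6 core planar cell polarity genes, pk alone rose and none fell, with a list median of 0.97. Prickle, its product, is a cytoplasmic LIM-domain protein that gathers on the proximal side of wing cells with Van Gogh. The level of pk (2R:7150703-7223378) was 121, 157, 114, 113 and 12.7 CPM in PCP 1 to PCP 5, 13.2 and 12.6 CPM in the 2 wild-type libraries and 80.2, 83.2 and 92.9 CPM in the 3 of the NovaSeq 6000. PCP 1 to PCP 4 were above every wild-type library of both sequencers, while PCP 5 lay between the 2 of its own. The fold change was 2.996 ± 0.66 on the log2 scale (adjusted p = 0.0131), and 0.28 ± 0.47 against the NovaSeq 6000 wild type (adjusted p = 0.782). With a term for the class of ribosomal RNA the estimate was 1.66 (adjusted p = 0.0789), and the call was also lost without wild-type library 1 (adjusted p = 0.179) or 2 (adjusted p = 0.275). Dishevelled, the cytoplasmic adaptor that Frizzled recruits, is encoded by dsh (X:11355881-11358724), which had levels of 95.3, 104, 107, 102 and 11.2 CPM against 9.31 and 10.5 CPM and 108, 92.9 and 84.9 CPM. Every delta PCP library was above the wild type of its sequencer, PCP 5 only just, and the test was not passed (log2 3.08 ± 1.52, adjusted p = 0.236). The 7-pass cadherin gene stan (2R:10673345-10721138) was at 194, 250.5, 139, 139 and 53.3 CPM, with 57.7 and 46.8 CPM in the wild type (log2 1.56 ± 0.73, adjusted p = 0.222). For Vang (2R:9103238-9106796), the membrane partner of Prickle, the values were 454, 449, 386, 385 and 293 CPM and 309 and 294 CPM (log2 0.38 ± 0.196, adjusted p = 0.247). Diego, an ankyrin-repeat protein of the distal side, has the gene dgo (2R:10816037-10819884), measured at 53.7, 63.9, 50.3, 50.7 and 38.3 CPM against 41.2 and 42.96 CPM (log2 0.28 ± 0.17, adjusted p = 0.298). The Frizzled receptor gene fz (3L:14274343-14368639) had 203, 177, 125, 122 and 147 CPM against 161 and 152 CPM, overlapping on both sides (log2 -0.02 ± 0.28, adjusted p = 0.968). In stan, Vang and dgo the 4 libraries of low ribosomal RNA were above the wild type and PCP 5 was within or below its range.

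**Figure D2:**
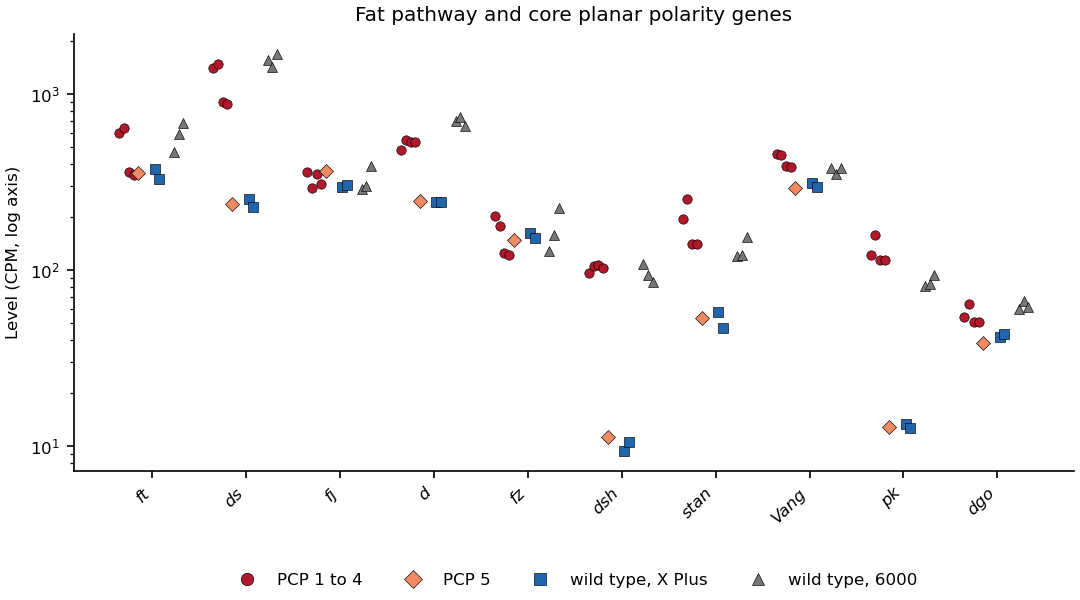
Level in CPM (log axis) of Fat pathway and core planar polarity genes, 1 symbol per library: circles PCP 1 to PCP 4, diamond PCP 5, squares wild type of the NovaSeq X Plus, triangles wild type of the NovaSeq 6000. For pk the circles run from 113 to 157 CPM and the diamond is at 12.7 CPM, beside the squares.

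Of 14 planar polarity effectors of wing hairs, 1 rose (7.14%, against 3.53% over all genes tested), none fell and the median was 0.38. It was DAAM (X:1289713-1322362), a formin that assembles actin filaments, with 132, 181, 139, 141 and 26.4 CPM in PCP 1 to PCP 5, 15.6 and 9.98 CPM in the wild type and 200.2, 136 and 181 CPM in the NovaSeq 6000 wild type. All 5 libraries lay above the wild type of their sequencer, PCP 5 by less than the others (log2 3.27 ± 0.79, adjusted p = 0.0242). The call was not made without either wild-type library. The myosin VIIa gene ck, which shapes hairs and bristles, was at 235, 279.9, 173, 180.1 and 43.4 CPM against 45.03 and 42.01 CPM and did not pass (log2 2.06 ± 0.87, adjusted p = 0.195). None of 14 cadherins tested passed in either direction, though all 14 estimates were above 0, with a median of 1.32. Over all genes tested 5457 of 10775 estimates were above 0. The list's median log2 level over the X Plus wild type was 1.26 to 1.65 in PCP 1 to PCP 4. It was -0.003 in PCP 5 and 1.29 in the NovaSeq 6000 wild type. Levels of kug, the Fat-like cadherin of egg chamber rotation, were 421, 471, 299, 280.4 and 111 CPM against 120.3 and 100.5 CPM (log2 1.51 ± 0.82, adjusted p = 0.257). The E-cadherin gene shg had 968, 1084, 844, 803 and 301 CPM against 339.7 and 312 CPM (log2 1.29 ± 0.695, adjusted p = 0.257). CadN, a neural cadherin, was at 94.9, 114, 67.8, 62.3 and 23.99 CPM and 24.9 and 16.7 CPM (log2 1.797 ± 0.67, adjusted p = 0.163). Without PCP 5, 2 of the cadherins passed, both higher, beside 1035 higher of 10719 genes tested in that fit.

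Of 22 Hippo components, 4 rose (yki, Tgi, Cka and Tao) and none fell, and the median was 0.34. That is 18.2%, against 3.53% higher over all genes tested. The growth co-activator gene yki (2R:24065975-24068485) had 70.1, 71.9, 79.6, 78.02 and 86.7 CPM in PCP 1 to PCP 5 and 28.7 and 18.9 CPM in the wild type. It was 1 of 5 rises in which PCP 5 was the highest of its group, and the groups did not overlap (log2 1.69 ± 0.34, adjusted p = 0.00673). The wild type of the NovaSeq 6000 was at the same level as delta PCP, at 78.9, 81.6 and 77.05 CPM (log2 -0.04 ± 0.39 for delta PCP against it, adjusted p = 0.972). The estimate was 2.33 with a term for the class of ribosomal RNA, and the call was lost without wild-type library 2 (adjusted p = 0.279). Tgi (3L:13486797-13502492), a corepressor that competes with Yorkie for Scalloped, had 84.3, 95.8, 94.1, 105 and 8.24 CPM against 6.539 and 4.44 CPM. PCP 5 stood apart from the other 4 but above the wild type (log2 3.81 ± 0.69, adjusted p = 0.00322). The STRIPAK scaffold gene Cka (2L:8030721-8040826) ran at 333, 374, 327, 320.5 and 243 CPM against 187 and 138 CPM, with no overlap (log2 0.97 ± 0.18, adjusted p = 0.00348). Tao (X:19569721-19579800), the kinase that activates Hippo, was at 482, 562, 462, 468 and 63.04 CPM against 59.2 and 59.5 CPM (log2 2.77 ± 0.74, adjusted p = 0.0452). Without wild-type library 1, 2 of the 22 rose, and without library 2 none did. Against the NovaSeq 6000 wild type none of the 22 rose and 2 fell. In that wild type Tgi was at 117, 68.3 and 64.4 CPM and Cka at 321, 278 and 281 CPM. Tao was at 539, 467 and 476 CPM there.

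The other Hippo components named here did not pass. For ex (2L:431227-448701), an upstream regulator and Yorkie target, values were 844, 830.4, 580.1, 533 and 209.8 CPM in PCP 1 to PCP 5 and 231 and 218 CPM in the wild type. In the NovaSeq 6000 wild type they were 1458, 1583 and 1649 CPM, above every delta PCP library (log2 -1.38 ± 0.66, adjusted p = 0.242, after log2 1.41 ± 0.97, adjusted p = 0.339, against the X Plus wild type). The Yorkie kinase gene wts was at 67.00, 67.98, 55.4, 49.5 and 40.8 CPM against 39.7 and 32.9 CPM (log2 0.62 ± 0.45, adjusted p = 0.357). The Ajuba gene jub, whose product binds Warts at junctions, was at 109.8, 125, 129, 128 and 71.7 CPM against 69.9 and 74.5 CPM (log2 0.64 ± 0.19, adjusted p = 0.0727). Among 15 Yorkie targets 1 rose (6.67%, against 3.53% over all genes tested) and none fell, with a median of 0.62. This was E2f1, a transcription factor of S-phase entry, at 276, 268, 242, 247 and 133 CPM against 92.9 and 75.5 CPM (log2 1.46 ± 0.29, adjusted p = 0.00534), lost without either wild-type library. The apoptosis inhibitor gene Diap1 was at 430.1, 461, 510.0, 496 and 377 CPM and 419 and 363 CPM (log2 0.21 ± 0.18, adjusted p = 0.43). CycE, the cyclin of S-phase entry, was at 126, 116, 99.6, 96.5 and 63.8 CPM and 67.1 and 62.4 CPM (log2 0.62 ± 0.22, adjusted p = 0.136). Both overlapped with the wild type. Myc, the growth factor of transcription, was at 405, 376, 233, 231 and 506 CPM and 529.6 and 453 CPM (log2 -0.49 ± 0.299, adjusted p = 0.29), the lowest values being those of PCP 3 and PCP 4.

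Regional patterning genes of the disc were among those that passed. In a bulk library fewer cells of a region and less RNA per cell cannot be told apart. In the wing pouch list 4 of 12 genes rose (Dll, nub, kn and bs), none fell, and the median was 1.90. That is 33.3%, against 3.53% higher over all genes tested. The list's median log2 level over the X Plus wild type was 1.93 in the NovaSeq 6000 wild type and 0.05 in PCP 5. None of the 12 passed against the NovaSeq 6000 wild type. The distal homeodomain gene Dll (2R:24814822-24835667) had 192, 193, 155, 154 and 55.3 CPM in PCP 1 to PCP 5 against 44.9 and 29.6 CPM, with no overlap (log2 2.002 ± 0.38, adjusted p = 0.00393). The pouch gene nub (2L:12587625-12628135) had 789, 945, 726, 732 and 240.5 CPM against 176 and 144 CPM, all 5 above the wild type (log2 2.095 ± 0.54, adjusted p = 0.0375). For kn (2R:14772650-14807061), a COE-family factor of the central wing, the values were 69.2, 91.7, 52.7, 51.9 and 7.48 CPM, 9.46 and 4.67 CPM in the wild type and 26.6, 33.4 and 40.1 CPM in that of the NovaSeq 6000. Here PCP 1 to PCP 4 exceeded all 5 wild-type libraries, and PCP 5 lay between the 2 of its sequencer (log2 2.94 ± 0.74, adjusted p = 0.0315). The serum response factor homolog bs, needed in intervein cells, was at 84.8, 94.7, 55.1, 60.03 and 18.02 CPM against 20.6 and 14.96 CPM (log2 1.81 ± 0.49, adjusted p = 0.0491). The count of 4 became 1 without wild-type library 1, 0 without library 2 and 7 without PCP 5. In the last of these fits 1035 of 10719 genes tested rose. In the hinge list 1 of 5 genes rose, exd (X:15992468-15996509), a Hox cofactor, at 421, 369.6, 311, 314 and 139 CPM against 89.2 and 78.9 CPM (log2 1.88 ± 0.29, adjusted p = 0.000876). The gene of its nuclear partner hth was at 1196, 1020.0, 394, 422 and 1406 CPM against 1504 and 1346 CPM, PCP 3 and PCP 4 being far below the other 3 (log2 -0.69 ± 0.38, adjusted p = 0.263).

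The notum list had the largest share past the test of the lists examined, 8 of 11 higher (72.7%) and none lower, with a median of 1.72. Its members specify the body wall part of the disc. The list's median log2 level over the X Plus wild type was 1.45 in the NovaSeq 6000 wild type and 0.35 in PCP 5. Against the NovaSeq 6000 wild type 1 of the 11 passed. The Iroquois gene ara (3L:12580672-12596018) had 201, 230.2, 199.8, 206 and 110.0 CPM in PCP 1 to PCP 5 and 63.8 and 47.97 CPM in the wild type. PCP 5 was lower than the other 4 but clear of the wild type (log2 1.75 ± 0.25, adjusted p = 0.000396). The LIM-homeodomain gene tup (2L:18859507-18881261) was at 30.9, 27.9, 30.5, 28.4 and 14.6 CPM against 8.56 and 7.61 CPM (log2 1.703 ± 0.31, adjusted p = 0.00358). For the Pax gene toe (3L:12422510-12432668) levels were 44.8, 49.5, 61.01, 67.9 and 11.2 CPM against 8.77 and 7.04 CPM (log2 2.56 ± 0.46, adjusted p = 0.00291). Its neighbour eyg was at 55.8, 47.8, 51.7, 50.4 and 23.6 CPM against 23.2 and 25.1 CPM, PCP 5 lying inside the wild-type range (log2 0.92 ± 0.24, adjusted p = 0.0413). Both Bar homeobox genes of the prescutum rose. B-H2 (X:17314581-17324175) had 18.7, 19.1, 23.96, 23.5 and 0.815 CPM in PCP 1 to PCP 5, 0.718 and 0.344 CPM in the wild type and 13.9, 9.13 and 10.2 CPM in the NovaSeq 6000 wild type (log2 4.98 ± 0.89, adjusted p = 0.00289). B-H1 (X:17397478-17403278) had 11.7, 12.2, 13.4, 14.4 and 1.46 CPM, 0.692 and 0.995 CPM and 6.16, 6.12 and 6.24 CPM (log2 3.65 ± 0.700, adjusted p = 0.00462). In both, PCP 1 to PCP 4 were above the wild types of both sequencers, but neither gene passed against the NovaSeq 6000 (adjusted p = 0.675 and 0.546). The Iroquois gene caup, next to ara, was at 176, 159.9, 119.7, 119 and 124 CPM against 123 and 129.5 CPM (log2 0.14 ± 0.26, adjusted p = 0.719). The GATA gene pnr of the dorsal notum was at 60.4, 51.8, 70.8, 68.95 and 57.2 CPM against 63.4 and 57.00 CPM (log2 0.03 ± 0.203, adjusted p = 0.923), but against 30.3, 23.96 and 31.2 CPM in the NovaSeq 6000 wild type it was higher in all 5 (log2 1.12 ± 0.24, adjusted p = 0.0061). The notum count was 2 without wild-type library 1, 1 without library 2, 5 without any 1 of PCP 1 to PCP 4 and 6 with a term for the class of ribosomal RNA.

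Posterior compartment genes rose as a pair. The selector gene en (2R:11524006-11528210) had 136, 161, 147, 146 and 42.5 CPM in PCP 1 to PCP 5 and 23.7 and 17.4 CPM in the wild type, with 131, 151 and 143 CPM in that of the NovaSeq 6000. PCP 5 stood between the wild type and the other 4 (log2 2.61 ± 0.36, adjusted p = 0.000323). Its paralogue and neighbour inv (2R:11474465-11509695) had 199, 232, 191, 186 and 32.4 CPM against 23.6 and 18.2 CPM (log2 2.999 ± 0.55, adjusted p = 0.00329). The Hedgehog receptor gene ptc (2R:8649649-8665223) was the other riser of 9 genes in the Hedgehog and posterior list, at 219, 241, 199.6, 191 and 50.9 CPM against 54.3 and 51.3 CPM, with PCP 5 just below the wild type (log2 1.77 ± 0.48, adjusted p = 0.0478). The ligand gene hh, which Engrailed cells express, was at 53.01, 57.2, 57.2, 58.1 and 60.2 CPM against 61.96 and 57.9 CPM (log2 -0.07 ± 0.23, adjusted p = 0.825). The pathway's transcription factor gene ci was at 1126, 1128, 644, 643 and 377 CPM against 429 and 370.0 CPM (log2 0.97 ± 0.74, adjusted p = 0.383). None of the 9 fell, the median was 0.88, and 1 passed without wild-type library 1 or without library 2.

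In the JAK/STAT list 4 of 9 genes rose (44.4%, against 3.53% over all genes tested), none fell and the median was 1.29. The receptor gene dome (X:19676061-19683518) had 317, 379.5, 334, 331 and 87.5 CPM in PCP 1 to PCP 5 and 34.8 and 30.1 CPM in the wild type. PCP 5 was above the wild type and below the other 4 (log2 3.15 ± 0.51, adjusted p = 0.00123). The ligand gene upd1 (X:18305354-18309291) was at 8.48, 10.2, 8.88, 8.28 and 1.43 CPM against 0.923 and 1.34 CPM (log2 2.72 ± 0.53, adjusted p = 0.00547). Its neighbour upd2 was at 0.371, 0.308, 0.566, 0.434 and 0.379 CPM against 0.0256 and 0.0383 CPM, where the wild type held only 2 counts in all and delta PCP 65. That gives a ratio of 13.1, with an exact interval from counting error alone of 3.49 to 111. The third ligand gene, upd3, was at 0.927, 1.204, 1.13, 1.38 and 1.02 CPM against 0.5898 and 0.612 CPM, without overlap but without passing (log2 0.903 ± 0.42, adjusted p = 0.222). The receptor-like antagonist gene et (X:19672312-19675891), next to dome, had 3.79, 2.75, 13.7, 3.63 and 4.95 CPM against 0.949 and 0.842 CPM, with PCP 3 far above the rest (log2 2.67 ± 0.64, adjusted p = 0.0233). PCP 3 also had the highest summed level of 7 hemocyte markers, and without it the log2 fold change of et was 2.07 (adjusted p = 0.0263). The transcription factor gene Stat92E was at 417, 407, 400.1, 383 and 282 CPM against 291 and 266 CPM (log2 0.43 ± 0.37, adjusted p = 0.42). Without wild-type library 1 a single gene of the list passed, and without library 2 none. In the NovaSeq 6000 wild type dome was at 357, 321 and 299 CPM and upd1 at 9.96, 13.5 and 10.9 CPM. Against that wild type 1 of the 9 genes passed, which was et. All 4 risers lie on X:18000001-21000000, a stretch described below in which 15.5% of genes tested were called.

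Single members rose in 4 further pathway lists. They made up 7.14% of the Wingless, 9.09% of the Dpp, 7.69% of the Notch and 7.14% of the JNK list. Over all genes tested 3.53% rose. In the Wingless list of 14 it was Axn (3R:30022842-30035311), scaffold of the complex that destroys Armadillo, at 208, 216, 194, 195 and 22.8 CPM in PCP 1 to PCP 5 against 18.1 and 20.01 CPM (log2 3.13 ± 0.801, adjusted p = 0.0347). In the Dpp list of 11 it was Med, the co-Smad, at 114, 132, 126, 127 and 23.7 CPM against 10.03 and 9.11 CPM (log2 3.44 ± 0.47, adjusted p = 0.0003). In the Notch list of 13 it was mib1 (3L:16006552-16011812), a ubiquitin ligase of Notch ligands, at 176, 197, 208, 215 and 106 CPM against 64.4 and 50.7 CPM (log2 1.64 ± 0.28, adjusted p = 0.00206). In the JNK and disc damage list of 14 it was kay (3R:29765995-29794113), the Fos homolog, at 246, 234, 198, 202 and 97.4 CPM against 53.3 and 48.5 CPM (log2 1.93 ± 0.41, adjusted p = 0.00915). The 4 share an order of libraries, with PCP 5 above the wild type of its sequencer and below the other delta PCP libraries. In the NovaSeq 6000 wild type Axn was at 207, 219 and 218 CPM and Med at 135, 127 and 114 CPM. There mib1 was at 240, 232 and 203 CPM and kay at 277, 246 and 309 CPM. Wingless ligand transcripts of wg (2L:7307159-7316265) were at 253, 265, 216, 225 and 137 CPM against 162 and 148 CPM (log2 0.49 ± 0.24, adjusted p = 0.234). None of 9 EGF receptor pathway genes passed, and no gene of these 5 lists fell. Among 21 cell cycle genes only E2f1 passed, and the median was -0.24.

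Ecdysone response genes showed wide differences among the delta PCP libraries. Of 19 tested, 2 rose, none fell, and the median was 1.55. They were usp (X:2038798-2042311), the partner of the ecdysone receptor, at 119, 137, 132, 133 and 61.4 CPM in PCP 1 to PCP 5 against 46.6 and 39.4 CPM (log2 1.44 ± 0.25, adjusted p = 0.00225), and the nuclear receptor gene Eip75B (3L:17950953-18064696). Eip75B was at 420.0, 423, 401, 427 and 89.7 CPM against 104 and 78.8 CPM, with PCP 5 inside the wild-type range (log2 1.94 ± 0.48, adjusted p = 0.0264). Hr4, a nuclear receptor gene of the prepupal response, spread further, at 399.5, 596, 168, 246 and 5.39 CPM against 10.4 and 6.39 CPM and, in the NovaSeq 6000 wild type, 8.596, 7.91 and 24.1 CPM. It did not pass against the X Plus wild type (log2 5.07 ± 1.797, adjusted p = 0.143) but was higher against the other (log2 4.39 ± 1.23, adjusted p = 0.0305). Hr3, of the same receptor family, was at 28.98, 120.1, 9.24, 22.6 and 0 CPM against 0.0769 and 0.0765 CPM (log2 8.805 ± 3.21, adjusted p = 0.155). The ecdysone-inducible gene ImpE1 was at 739, 1309, 502, 631 and 34.9 CPM against 64.4 and 38.03 CPM (log2 3.64 ± 1.44, adjusted p = 0.178). In Hr3, Hr4 and ImpE1 alike PCP 2 was highest and PCP 5 lowest. Without PCP 5, 9 of the 19 rose and 1 fell, beside 1035 higher and 1024 lower of 10719 genes tested in that fit.

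Markers of larval fat body also differed widely among the delta PCP libraries. Their summed level was again highest in PCP 2 and lowest in PCP 5. PCP 1 was below PCP 3 and PCP 4, unlike in Hr3, Hr4 and ImpE1. The summed level of the 7 genes of that list was 470 CPM in PCP 1, 14262 CPM in PCP 2, 3303 CPM in PCP 3, 11029 CPM in PCP 4 and 23.03 CPM in PCP 5, against 43.3 and 58.5 CPM in the wild type. In the NovaSeq 6000 wild type it was 14.0 to 26.9 CPM. None of the 7 passed and the median was 6.82. The storage protein gene Lsp2 was at 82.1, 2487, 788, 3425 and 3.12 CPM against 5.001 and 6.89 CPM (log2 7.83 ± 3.95, adjusted p = 0.24). The storage protein receptor gene Fbp1, an ecdysone target of fat body, was at 205, 8479, 1252, 1240.0 and 2.59 CPM against 2.82 and 4.59 CPM (log2 9.23 ± 3.98, adjusted p = 0.203). The part of fat body RNA in the ecdysone values was not tested. In the adult muscle precursor list 1 of 8 genes rose, zfh1 (3R:30765926-30789202), at 93.7, 111, 77.01, 72.5 and 13.4 CPM against 11.5 and 11.2 CPM (log2 2.69 ± 0.59, adjusted p = 0.0117). In the hemocyte list 1 of 7 rose, the GATA gene srp, which fat body also expresses. The summed level of that list was 120.5, 111, 259, 115 and 104 CPM in PCP 1 to PCP 5, 95.3 and 95.45 CPM in the wild type and 62.4 to 137 CPM in that of the NovaSeq 6000. PCP 3 was the highest delta PCP library for 6 of the 7 markers, and none of the 7 was at 0 in any of these libraries. Of the 2 male dosage compensation RNAs, lncRNA:roX1 was at 2812, 1742, 810.1, 649.9 and 9.87 CPM against 131 and 134 CPM and lncRNA:roX2 at 67.9, 32.4, 31.96, 24.4 and 0.117 CPM against 11.5 and 8.38 CPM. PCP 5 was the lowest of all 10 delta PCP and wild-type libraries for both (adjusted p = 0.202 and 0.325 over all 5).

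Muscle and heat shock genes lay on the other side. Of 18 genes of differentiated muscle 1 fell, none rose and the median was -1.94. It was Mlp84B (3R:7112850-7117732), a LIM protein of the sarcomere, at 5.64, 5.13, 9.87, 4.26 and 19.8 CPM in PCP 1 to PCP 5 against 27.4 and 40.6 CPM (log2 -1.93 ± 0.43, adjusted p = 0.0128). In the NovaSeq 6000 wild type the level was 4.49, 3.29 and 2.74 CPM, so that delta PCP was on average below one wild type and, without passing, above the other (log2 1.35 ± 0.46, adjusted p = 0.075). The muscle actin gene Act57B was at 47.7, 23.98, 71.1, 31.5 and 129 CPM against 157 and 309 CPM (log2 -1.95 ± 0.57, adjusted p = 0.072). Against 2.52, 8.08 and 5.695 CPM in the NovaSeq 6000 wild type it was higher (log2 3.48 ± 0.65, adjusted p = 0.00222). Among 15 heat shock genes 1 fell, none rose and the median was -1.57. That gene was DnaJ-1 (3L:5750029-5752189), an Hsp40 co-chaperone, at 45.5, 45.6, 40.1, 45.5 and 59.1 CPM against 90.04 and 79.04 CPM (log2 -0.85 ± 0.19, adjusted p = 0.012). The inducible gene Hsp70Ab, which has near-identical copies among which reads may be split, was at 1.404, 0.756, 1.203, 22.8 and 159.7 CPM against 498 and 219 CPM (log2 -3.27 ± 1.81, adjusted p = 0.264). Both calls were lost without wild-type library 1 or 2.

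Genes of the ribosome and mitochondrion were also read by library. None of 87 cytoplasmic ribosomal protein genes passed, with a median of -1.498, and for 58 of them all delta PCP libraries were below the wild type (13.5% over all genes tested). The list's median log2 level over the wild type was -2.63, -2.96, -1.84 and -1.81 in PCP 1 to PCP 4 but -0.10 in PCP 5, and -2.35 in the NovaSeq 6000 wild type. Without PCP 5, 31 of the 87 fell, beside 1024 lower of 10719 genes tested in that fit. With a term for the class of ribosomal RNA 5 rose and none fell, beside 369 higher and 29 lower of 10775. Nuclear genes of the respiratory chain had a median of -0.61, yet 4 of 63 rose (6.35%, against 3.53% over all genes tested) and none fell. These included UQCR-C2 (3L:16584124-16586111), a core subunit of complex III, at 182, 168, 233, 228 and 96.5 CPM in PCP 1 to PCP 5 against 16.8 and 15.3 CPM (log2 3.495 ± 0.45, adjusted p = 0.000208). UQCR-C1, the other core subunit, was at 264, 259.6, 389, 378 and 291 CPM against 104 and 73.1 CPM (log2 1.83 ± 0.35, adjusted p = 0.00445). The complex I gene ND-18 was at 41.8, 35.6, 62.6, 58.1 and 25.2 CPM against 7.08 and 5.01 CPM (log2 2.88 ± 0.53, adjusted p = 0.00342). ATPsynB, of ATP synthase, was at 149, 135, 278, 282 and 33.9 CPM against 19.1 and 22.2 CPM (log2 3.08 ± 0.67, adjusted p = 0.0114). In all 4 genes PCP 5 was above the wild type, and all 4 calls were made with a term for the class of ribosomal RNA. Against the NovaSeq 6000 wild type none of the 63 passed in either direction, and UQCR-C1 had a log2 fold change of -0.103. Over all alternatives the lowest estimates were 0.072 for UQCR-C2, 0.085 for ND-18 and 0.016 for ATPsynB. Without wild-type library 1, 2 of the 63 passed, and without library 2, 1 did. The 15 transcripts of the mitochondrial genome had a median of -1.10 and none passed.

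**Figure D3:**
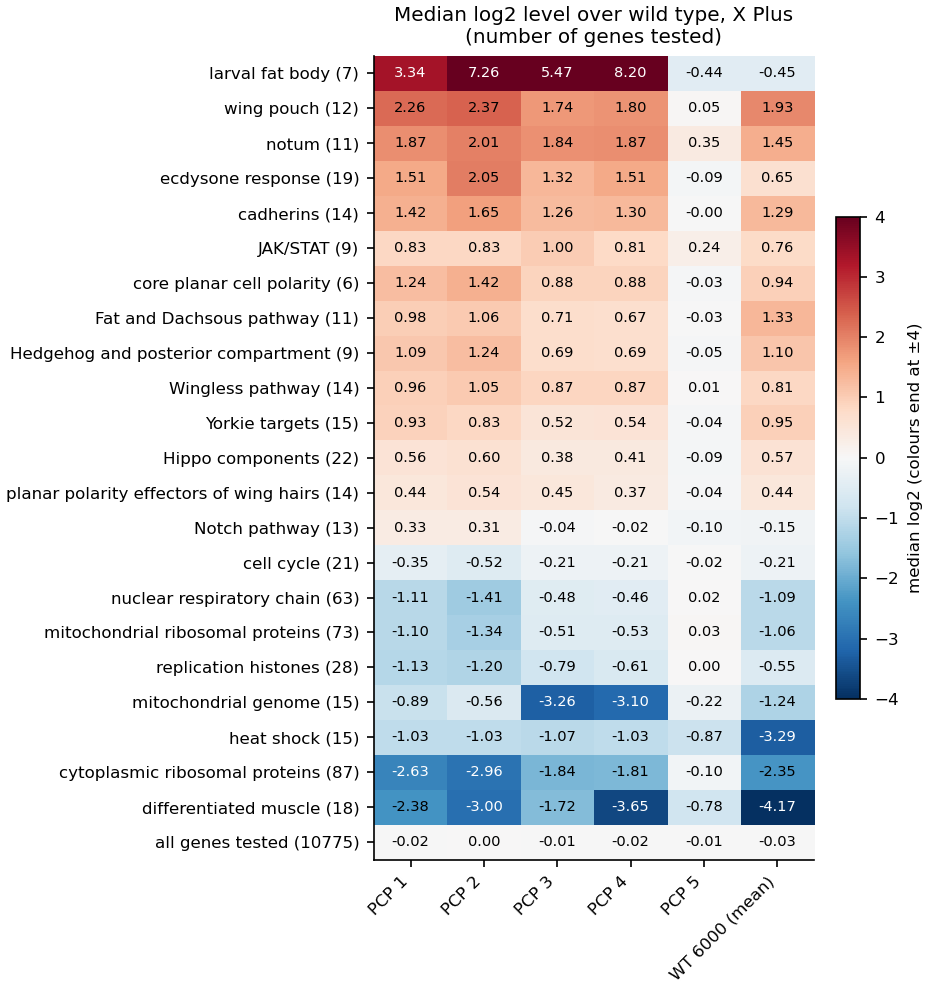
Each cell gives the median log2 level of a gene list over the mean of the wild type of the NovaSeq X Plus, for each delta PCP library and the mean of the NovaSeq 6000 wild type; the number of genes tested stands in brackets and colours end at 4 on either side. PCP 5 lies between -0.87 and 0.35 in the lists shown, while PCP 1 to PCP 4 resemble the last column in most rows.

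Symbols containing rRNA themselves gave 1 rise and no fall among 20 tested. The riser was 18SrRNA:CR41548, a nuclear 18S copy, at 2712, 2177, 1306, 975 and 0 CPM in PCP 1 to PCP 5, at 0 in both wild-type libraries and at 1998, 2563 and 1751 CPM in the NovaSeq 6000 wild type (adjusted p = 0.00689). The copies are near-identical, reads may be split among them, and the value is uncertain. PCP 5, with its high summed ribosomal RNA share, was at 0 for this copy, as both wild-type libraries were.

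The largest rises were of genes almost silent in the wild type of the NovaSeq X Plus. CG32536 (X:19275004-19276898) had 17.6, 16.5, 17.8, 19.8 and 0.582 CPM in PCP 1 to PCP 5 against 0 and 0.2295 CPM (log2 7.11 ± 1.18, adjusted p = 0.00154), with 18.1, 16.7 and 16.02 CPM in the NovaSeq 6000 wild type. The trafficking gene p24-2 (3R:9687402-9692794), a close paralogue of eca with which it may share reads, had 640.3, 1075, 237, 276 and 3.35 CPM against 2.77 and 0.956 CPM, and 926, 0 and 0 CPM in the 3 other wild-type libraries (log2 7.88 ± 1.81, adjusted p = 0.0208). CG8854 had 1.77, 2.27, 1.88, 2.01 and 0.641 CPM against 0.0513 and 0 CPM, or 274 counts against 2, a ratio of 55.3 with a counting interval of 15.2 to 459. The antisense RNA asRNA:CR43683 was at 9.78, 14.03, 9.52, 9.58 and 0.728 CPM against 0.308 and 0 CPM (adjusted p = 0.00266). The Mediator kinase-module gene kto (3L:19836614-19844944) was at 161, 172, 186, 187 and 5.096 CPM against 3.26 and 3.83 CPM (log2 5.32 ± 1.32, adjusted p = 0.029), the microtubule gene mei-38 (X:1477063-1481420) at 36.9, 29.8, 50.4, 51.2 and 1.66 CPM against 1.03 and 0.765 CPM (log2 5.22 ± 0.93, adjusted p = 0.00289), and the splicing factor gene Spx (X:6255822-6257596) at 132, 117, 170.4, 162 and 5.12 CPM against 2.72 and 3.94 CPM (log2 5.13 ± 0.88, adjusted p = 0.00208). In each of these, PCP 5 was above both wild-type libraries and below the other 4 delta PCP libraries. CG8854 also passed with PCP 5 alone against the wild type (log2 4.27, adjusted p = 0.0375). The NovaSeq 6000 wild type was close to those 4 or above them, at 296, 190.3 and 161 CPM for kto, 63.9, 79.2 and 62.2 CPM for mei-38 and 149.9, 145 and 129 CPM for Spx. All 3 calls were lost without wild-type library 1 or 2.

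The 9 falls included 2 features at or near 0 in delta PCP. Beside Mlp84B and DnaJ-1 they included asRNA:CR45141 at 14.8, 12.8, 14.3, 15.2 and 23.4 CPM in PCP 1 to PCP 5 against 31.98 and 31.4 CPM (log2 -0.98 ± 0.197, adjusted p = 0.0063). CG44245 was at 12.3, 10.2, 12.6, 10.5 and 21.6 CPM against 37.2 and 41.9 CPM (log2 -1.56 ± 0.36, adjusted p = 0.0172). CG14074 was at 5.59, 4.79, 5.84, 5.88 and 7.89 CPM against 10.7 and 11.5 CPM (log2 -0.89 ± 0.201, adjusted p = 0.0151), and CG4186 at 1.48, 1.32, 1.31, 1.499 and 2.82 CPM against 3.74 and 3.63 CPM (log2 -1.13 ± 0.31, adjusted p = 0.0491). In these 4 genes PCP 5 was again the library nearest to the wild type. RIC-3, a chaperone gene of acetylcholine receptors, was at 0.4504, 0.364, 0.4601, 0.276 and 0.728 CPM against 1.15 and 2.91 CPM (log2 -2.15 ± 0.58, adjusted p = 0.0487). The histone copy His2A:CG33814 was at 0 in all 5 delta PCP libraries against 5.54 and 6.27 CPM, at least 318-fold lower by the limit of 3 counts over the group (adjusted p = 0.0464). It is one of many near-identical copies, so this is uncertain, and the other 27 histone genes tested did not pass. The antisense RNA asRNA:CR45663 was at 0 in 4 delta PCP libraries and at 0.0840 CPM in PCP 2, against 0.846 and 0.956 CPM (adjusted p = 0.0292). None of the 9 falls passed without wild-type library 1 or without library 2, and none passed against the NovaSeq 6000 wild type in the same direction.

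PCP 5 and the wild type of the NovaSeq X Plus share a ribosomal RNA class, and PCP 5 set alone against those 2 libraries gave 28 genes, all higher. They had log2 differences of 0.82 to 4.27, with PCP 5 as 1 library assumed to vary like the other groups. All 28 were also among the 389 genes, of which PCP 5 was a part. For each gene found with PCP 5 alone, every delta PCP library was above both wild-type libraries of the sequencer, and so was the NovaSeq 6000 wild type. The translation initiation gene eIF3a (3R:4429798-4433895) was at 392, 384, 381, 355 and 419 CPM in PCP 1 to PCP 5 against 169.8 and 109.9 CPM, with PCP 5 the highest (log2 1.46 ± 0.19 over the 5, adjusted p = 0.000208). The splicing factor gene SF2 (3R:16338943-16341988) was at 399, 378, 365, 348 and 314 CPM against 116 and 92.8 CPM (log2 1.78 ± 0.21, adjusted p = 9.39e-05). Rab9, a GTPase of endosome traffic, was at 2.89, 3.56, 5.66, 5.56 and 4.34 CPM against 0.5898 and 1.03 CPM, PCP 5 lying within the range of the other 4 (log2 2.44 ± 0.37, adjusted p = 0.000671). The Brahma chromatin complex gene mor (3R:15968134-15972913) was at 389, 378, 379.8, 356 and 98.9 CPM against 28.2 and 19.6 CPM (log2 3.74 ± 0.48, adjusted p = 0.000194). The transcription factor gene Deaf1 (3L:19818174-19830686) was at 134, 154, 156, 151 and 30.2 CPM against 17.4 and 16.7 CPM (log2 2.87 ± 0.43, adjusted p = 0.000654). In the last pair PCP 5 was nearer in CPM to the wild type than to the other delta PCP libraries, which for mor did not hold on the log2 scale. Only 2 of the 28 had PCP 5 inside the range of PCP 1 to PCP 4. Against the 3 wild-type libraries of the NovaSeq 6000, PCP 5 was below all of them in 25 of the 28, and it was above all of them for eIF3a. None of the 28 passed in delta PCP as a whole against that wild type in the same direction.

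**Figure D4:**
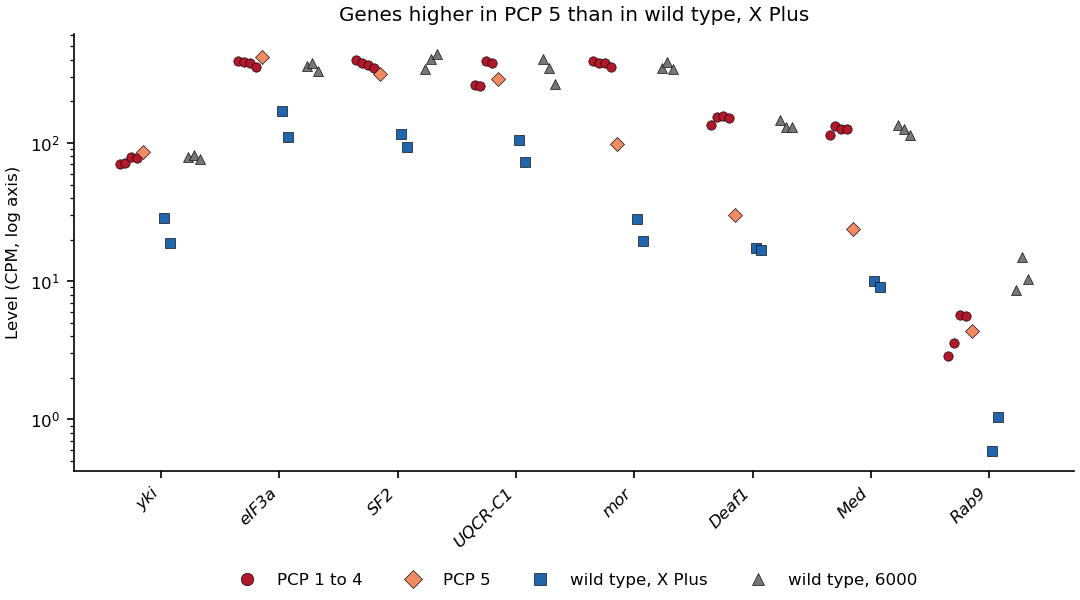
Levels in CPM (log axis) of genes in which PCP 5 lay above the wild type of the NovaSeq X Plus, with 1 symbol per library as in the plot of polarity genes; yki and UQCR-C1 are shown beside genes that passed for PCP 5 alone. For eIF3a PCP 5 is at 419 CPM, above the other delta PCP libraries at 355 to 392 CPM and the wild type of its sequencer at 110 and 170 CPM.

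Against the NovaSeq 6000 wild type, 604 of 11294 genes differed in delta PCP (5.35%). In the same direction against both wild types, 7 of the 389 genes passed, a comparison that uses the same 5 delta PCP libraries on both sides, and all 7 were higher. The GATA factor gene srp (3R:15986152-16004085), of hemocytes and fat body, was at 10.5, 18.7, 25.3, 14.3 and 0.757 CPM in PCP 1 to PCP 5, with 0.4103 and 0.574 CPM in the X Plus wild type and 2.096, 1.64 and 3.77 CPM in the other. PCP 3 was the highest, as in the summed hemocyte markers, and without it the log2 fold change against the X Plus wild type was 4.48 (adjusted p = 0.0291). PCP 5 was above the first wild type and below the second (log2 4.81 ± 1.09, adjusted p = 0.0159, and log2 2.47 ± 0.72, adjusted p = 0.0364). The X-linked gene meso18E (X:19706418-19713045) was at 10.4, 11.6, 9.27, 9.703 and 5.68 CPM, with 4.62 and 2.87 CPM and 3.59, 4.14 and 3.12 CPM. Every delta PCP library was above all 5 wild-type ones (log2 1.31 ± 0.31, adjusted p = 0.0223, and 1.37 ± 0.28, adjusted p = 0.00482). The same held for et, whose NovaSeq 6000 levels were 0.599, 0.255 and 0.583 CPM (log2 3.58 ± 0.62, adjusted p = 0.0011). LManII, a lysosomal mannosidase gene, was at 86.05, 185, 49.8, 43.9 and 11.7 CPM with 9.08 and 6.31 CPM and 24.5, 4.17 and 4.700 CPM (log2 3.28 ± 0.85, adjusted p = 0.0374, and 2.76 ± 0.66, adjusted p = 0.0131). Orct, an organic cation transporter gene, was at 10.5, 38.3, 15.5, 24.6 and 2.79 CPM with 3.38 and 3.06 CPM and 3.25, 5.22 and 6.42 CPM (log2 2.501 ± 0.65, adjusted p = 0.0396, and 1.88 ± 0.45, adjusted p = 0.0123). In Orct PCP 5 was below all 5 wild-type libraries. The gene hbs, for an immunoglobulin adhesion protein, was at 183, 253, 168, 182 and 82.3 CPM with 83.3 and 59.8 CPM and 58.5, 51.6 and 60.3 CPM (log2 1.27 ± 0.34, adjusted p = 0.0452, and 1.61 ± 0.27, adjusted p = 0.00071). CG9664, with 745 counts in delta PCP and 3 in the X Plus wild type, was at 1.298, 15.3, 1.88, 3.47 and 0.262 CPM, a ratio of 100.2 with a counting interval of 34.2 to 487, and PCP 2 stood far above the rest. The calls of all 7 against the X Plus wild type were lost without either of its libraries, with adjusted p up to 0.266 for srp and 0.602 for hbs. With a term for the class of ribosomal RNA, et (adjusted p = 0.0273) and meso18E (adjusted p = 0.0495) passed. The other calls were lost in that fit, with adjusted p of 0.0690 for srp, 0.204 for LManII, 0.155 for Orct, 0.220 for hbs and 0.142 for CG9664. In Orct and CG9664 the 5 delta PCP libraries had the same order as in the summed fat body level, and the part of fat body RNA in these genes was not tested.

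**Figure D5:**
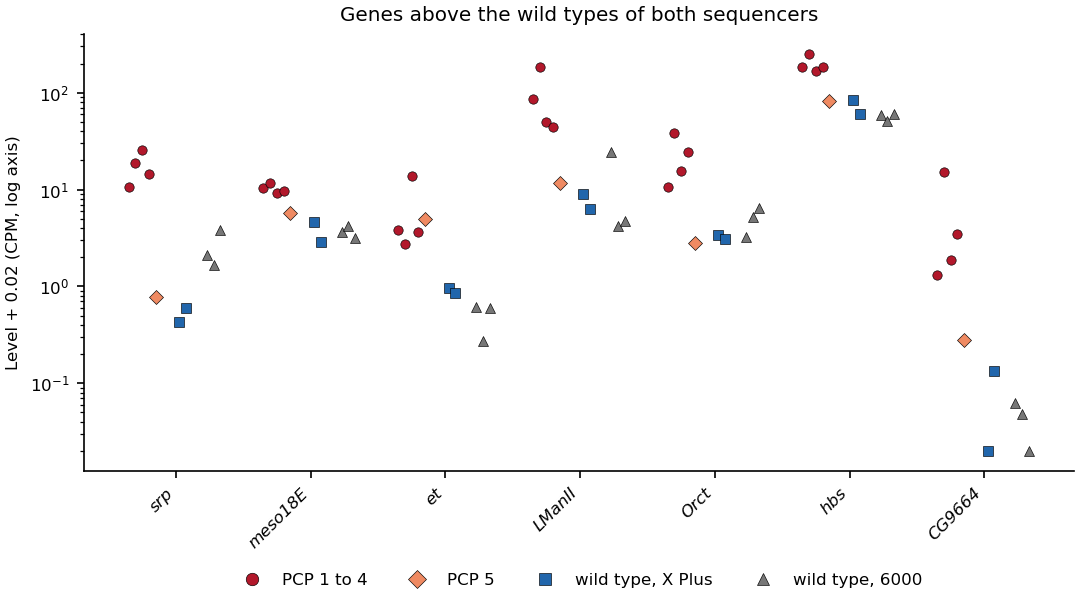
Levels in CPM plus 0.02 (log axis) of the 7 genes higher in delta PCP than in the wild types of both sequencers: circles PCP 1 to PCP 4, diamond PCP 5, squares and triangles the wild types of the NovaSeq X Plus and the NovaSeq 6000. For meso18E the diamond is at 5.68 CPM and the highest wild-type library at 4.62 CPM, while for Orct the diamond is below both wild types.

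In opposite directions against the 2 wild types, 4 of the 389 genes passed. CG1648 was at 39.3, 23.8, 49.02, 48.5 and 24.1 CPM in PCP 1 to PCP 5, above the 7.95 and 10.6 CPM of the X Plus wild type (log2 1.99 ± 0.42, adjusted p = 0.00902) and below the 139, 166 and 139 CPM of the other (log2 -2.002 ± 0.52, adjusted p = 0.0212). CG7991 was at 4.08, 4.54, 3.72, 3.98 and 1.72 CPM, with 1.05 and 0.689 CPM and 9.79, 10.6 and 12.9 CPM (log2 2.03 ± 0.51, adjusted p = 0.0309, and -1.62 ± 0.46, adjusted p = 0.0321). Rab9 lay between 0.5898 and 1.03 CPM and 8.68, 14.97 and 10.4 CPM (log2 -1.37 ± 0.39 against the second, adjusted p = 0.0324). The last of the 4 was CG17440. The wild types differ in both sequencer and ribosomal RNA class, which cannot be told apart in them.

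Delta PCP was also set beside the other Fat deletions of its sequencer. Against delta HpoC, 4 genes passed (0.0371%), 3 higher and 1 lower, and against delta HpoN+PH none did (0.0%). Ribosomal RNA symbols held 1.68%, 1.17%, 10.7%, 11.7% and 8.88% of counts in the 5 delta HpoC libraries and 11.7%, 1.22%, 1.35% and 1.09% in the 4 of delta HpoN+PH, so these groups held both classes in other proportions than delta PCP. At an unadjusted p under 0.05 the counts were 1318 and 489, and DESeq2's Wald test called 238 and 68. The smallest adjusted p against delta HpoN+PH was 0.146 (edgeR). CG10505 was at 2.01, 1.43, 2.51, 1.66 and 2.77 CPM in PCP 1 to PCP 5 and at 0.0597 to 0.136 CPM in the 5 delta HpoC libraries (log2 4.44 ± 0.65, adjusted p = 0.0139). It was at 4.54 and 2.26 CPM in the wild type of the sequencer. Dopa decarboxylase, encoded by Ddc (2L:19116483-19120306), makes dopamine for cuticle and neurons, and its gene was at 9.38, 9.44, 7.79, 5.68 and 4.95 CPM against 0.910 to 3.06 CPM (log2 2.16 ± 0.36, adjusted p = 0.0309) and 5.46 and 4.17 CPM in the wild type. CG42598 was at 13.8, 12.9, 9.48, 11.8 and 9.64 CPM against 22.9 to 29.2 CPM (log2 -1.15 ± 0.15, adjusted p = 0.00526) and 11.2 and 8.61 CPM in the wild type. In Ddc and CG42598 delta PCP did not overlap with delta HpoC but overlapped with the wild type.

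The fourth gene split delta PCP. Hsc70-2 (3R:13044759-13047388), a cognate chaperone gene, was at 0.212, 0.728, 21.3, 25.01 and 19.2 CPM in PCP 1 to PCP 5, 17.2 and 18.1 CPM in the wild type, at most 0.0318 CPM in delta HpoC and at most 0.573 CPM in delta HpoN+PH (adjusted p = 0.0171 against delta HpoC). PCP 1 and PCP 2, the libraries nearest to delta HpoN+PH by correlation, were near its level, and PCP 3 to PCP 5 were near that of the wild type. For this gene too, a wrong label was not tested. The 3 wild-type libraries of the NovaSeq 6000 were at 0. The 4 calls became 128 without PCP 5 and 7 without PCP 1, and 1 call without any 1 of delta HpoC libraries 1 to 4. With a term for the class of ribosomal RNA 90 genes passed, 42 higher and 48 lower.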

How the data were processed

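RNA-seq of imaginal wing discs gave 42 libraries. The deposited values are estimated counts per gene; per the submitters' processing notes, the tools were FastQC 0.10, Trimmomatic 0.33, Salmon 1.80 and edgeR with the build dm6, and how each was set, and whether counting used strand, is not given in the sources used here. Of the values, 24.6% were not whole, and the estimated counts of the deposited table were rounded to whole numbers. Of 17208 genes, 17083 matched the Ensembl annotation of release 6 of the genome, which gave coordinates and transcript lengths; sequences are not shown here.

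Groups came from the labels. In edgeR 4.0.16 (R 4.3.3) the 21 NovaSeq X Plus libraries entered 1 quasi-likelihood fit with TMM factors, filterByExpr and group as the only term (15 residual degrees of freedom), with Benjamini-Hochberg adjustment over 10775 genes and a threshold of 0.05. The biological coefficient of variation was 49.2%. Fold changes against the NovaSeq 6000 wild type came from a fit of all 42 libraries (11294 genes, 30 residual degrees of freedom), whose TMM factors also gave the CPM levels. The scripts were tested on simulated data. Alternatives were DESeq2 1.42.0 (size factors and Wald test), no filter, the groups alone, a replicate block, a ribosomal RNA class term (above or below 3% of counts), ribosomal RNA genes removed, the length trend removed, each library left out, and subsets of the delta PCP libraries by ribosomal RNA share or by nearest label. Counting intervals (95%, exact) and limits (3 counts) cover counting error only.

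The compared libraries, gene lists, tests and most alternatives were chosen with earlier results of these data known. Named by rule were 65 genes: fixed Fat, polarity and Yorkie genes; the largest non-overlapping rises and falls with a mean of at least 50 counts; genes past both wild types in 1 direction; up to 4 of smallest p in each list with at least 2 calls; and the calls against other deletions. A further 45 were named after their values were seen. Nothing in the labels says that replicates came from separate animals, so p-values measure only the spread between these samples, which may be technical. Overlapping and antisense genes are uncertain without strand.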

Additional observations from a re-analysis of the deposited data

Results flagged for a closer look

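Among the 5 delta PCP libraries the share of counts on ribosomal RNA symbols set PCP 5 apart: its gap to the next library was 0.974 of the group's whole range, above the critical value of 0.71 of Dixon's test at 95%. The same library stood apart in 32 of the 110 genes named here, and another library in 5 more. Chance gives about 1 such gap in 20 groups, and the genes are not independent of each other, since they come from the same 5 libraries. Of the 110 genes 69 were called, and 45 were named after their values were seen. The rate for chance does not apply to genes picked in this way, and no share over all genes tested is given.

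The gap of PCP 5 as a share of the range was 0.786 for d, 0.879 for dsh and 0.808 for Fbxl7 among the Fat and polarity genes. For the Hippo components and Yorkie targets it was 0.785 for Tgi, 0.799 for Tao and 0.762 for E2f1. For the patterning genes the values were 0.718 for Dll, 0.747 for ara, 0.817 for tup, 0.790 for B-H1, 0.772 for B-H2, 0.750 for eyg, 0.789 for en, 0.767 for inv and 0.735 for ptc. Signalling genes gave 0.786 for dome, 0.777 for upd1, 0.748 for Stat92E, 0.888 for Axn, 0.830 for Med, 0.764 for usp and 0.923 for Eip75B. The remaining genes higher in delta PCP gave 0.827 for CG32536, 0.855 for kto, 0.887 for mor, 0.828 for Deaf1, 0.824 for xio and 0.818 for Ubqn. On the lower side the gap was 0.794 for CG44245, 0.875 for CG4186, 0.779 for asRNA:CR45141 and 0.862 for Hsp70Ab, where PCP 5 was the highest of the 5. In the others it was the lowest. Its ribosomal RNA share of 16.1% moved with these gaps, and the part of that share in them was not tested.

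Other libraries stood apart in 5 genes. PCP 2 was the highest for CG9664 (0.787), Hr3 (0.759), Fbp1 (0.853) and asRNA:CR45663 (1), the last with 0 in the other 4 libraries. PCP 2 was also the library with the highest summed fat body level, at 14262 CPM. PCP 3 was the highest for et (0.798).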

How the results depend on the processing

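The 389 genes called against the wild type of the NovaSeq X Plus numbered 383 with DESeq2's size factors, 370 without a filter, 392 without ribosomal RNA genes, 398 with a class term for ribosomal RNA and 540 with the length trend removed, which moved the median log2 fold change of all genes from 0.01 to -0.15. They numbered 1061 by DESeq2's Wald test (934 higher), 623 with all 42 libraries in 1 fit, 18 with only the compared groups, 28 with PCP 5 alone, 241 with PCP 3 to PCP 5 alone (chosen after seeing the data) and 952 without PCP 1, PCP 2 and PCP 5. With the NovaSeq 6000 wild type as reference they numbered 604 (364 higher), and 713 without PCP 5 (425 higher). Leaving out 1 library gave 57 to 2059. A replicate block gave 720 (497 higher), and 2 against delta HpoC and 0 against delta HpoN+PH. Residuals of equally numbered delta PCP and delta HpoC libraries correlated at 0.12, 0.41, 0.0033, -0.20 and 0.37. Residuals also went with ribosomal RNA class. PCP 5 correlated at 0.43, 0.45 and 0.37 with delta HpoC libraries 3 to 5, of high share, and at -0.39 and -0.50 with libraries 1 and 2. These correlations therefore cannot decide whether equal numbers mark a pairing. Against delta HpoC the 4 genes became 238 by DESeq2's Wald test, 1 with only the compared groups, 90 with the class term and 1 to 128 with 1 library left out. Against delta HpoN+PH the 0 genes became 68 by DESeq2's Wald test and stayed 0 with any 1 library left out.

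Among named genes with a call in the reported comparison or in the alternative, signs turned in 3 settings, the cause was not tested, and the log2 values were as follows. With PCP 5 alone they were -0.026 for pk, -0.21 for Orct, -0.057 for ptc, -0.033 for Eip75B, -0.19 for Fbxl7 and -0.036 for eyg. With the NovaSeq 6000 wild type as reference they were -0.036 for yki, -0.23 for CG32536, -1.35 for CG8854, -0.44 for asRNA:CR43683, -0.61 for kto, -1.01 for mei-38, -0.27 for Spx, 1.28 for RIC-3, 1.35 for Mlp84B, 0.23 for CG4186, 0.31 for asRNA:CR45141, 0.12 for DnaJ-1, -0.100 for Tgi, -0.28 for Tao, -0.060 for Dll, -0.068 for bs, -0.48 for toe, -0.16 for en, -0.34 for inv, -0.17 for dome, -0.62 for upd1, -0.21 for upd2, -0.29 for usp, -0.103 for UQCR-C1, 11.69 for Hsc70-2, -0.23 for Fbxl7, -0.48 for DAAM, -0.36 for E2f1, -0.103 for exd, -0.36 for Axn, -0.26 for Med, -0.32 for mib1, -0.51 for kay, 3.48 for Act57B, -2.002 for CG1648, -1.62 for CG7991, -1.37 for Rab9, -0.14 for SF2, -0.17 for mor, -0.12 for Deaf1, -0.55 for 18SrRNA:CR41548, -0.27 for xio and -0.19 for Ubqn. With that reference and without PCP 5 they were -0.081 for yki, -1.14 for CG8854, -0.14 for asRNA:CR43683, -0.29 for kto, -0.703 for mei-38, 1.05 for RIC-3, 0.83 for Mlp84B, 0.14 for asRNA:CR45141, 0.030 for DnaJ-1, -0.0016 for Tao, -0.23 for toe, -0.071 for inv, -0.36 for upd1, -0.18 for upd2, -0.13 for usp, -0.074 for UQCR-C1, 11.51 for Hsc70-2, -0.22 for DAAM, -0.21 for E2f1, -0.078 for Axn, -0.0049 for Med, -0.18 for mib1, -0.34 for kay, 2.996 for Act57B, -1.88 for CG1648, -1.44 for CG7991, -1.36 for Rab9, -0.096 for SF2 and -0.23 for 18SrRNA:CR41548. These turned signs concern 48 genes. A further 37 named genes turned sign in at least 1 setting with a call in neither fit. Counting any named gene turned without a call, there were 25 with PCP 5 alone, 22 and 16 with the NovaSeq 6000 reference with and without PCP 5, 20 with the class term, 9 with the length trend removed and at most 3 in any other setting. With the NovaSeq 6000 reference they included ds (-0.67), ex (-1.38), d (-0.58), ft (-0.34), dgo (-0.28) and dsh (-0.18), and with the class term ds (-0.54), ex (-0.81), dsh (-0.6953) and ft (-0.48). The values of Hsc70-2 are fitted against libraries at 0 and are no bound.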

Other observations

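Genes of the X chromosome were called more often than those of the autosomes. Of 1780 X-linked genes tested, 114 differed between delta PCP and the wild type of the NovaSeq X Plus (6.4%), against 2.51% on 2L, 3.41% on 2R, 3.07% on 3L and 3.12% on 3R, and 0 of 92 on chromosome 4. The median longest transcript was 2156 bases on the X and 1846 bases on the autosomes. In windows of 1000000 bases, 121 windows held at least 20 genes tested, and the one with the highest share was X:19000001-20000000, where 18 of 97 genes were called (18.6%). Over X:18000001-21000000, a stretch picked after these shares were seen and therefore given with no test, 33 of 213 genes were called (15.5%), all higher, against 81 of 1567 on the rest of the X (5.17%). It holds dome, et, upd1, upd2, Tao, meso18E and ND-18 of the results above. It also holds xio and Ubqn, a ubiquilin gene. Levels of xio (X:18888978-18893636) were 296, 356, 325, 325 and 17.6 CPM in PCP 1 to PCP 5, with 10.7 and 8.46 CPM in the wild type of the sequencer. Ubqn (X:19683808-19687658) was at 610.1, 588, 509, 509 and 54.1 CPM, with 28.7 and 30.3 CPM. For both genes PCP 5 was above the wild type and far below the other 4.

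The order of libraries was the same in the stretch as a whole. Median log2 levels of its 33 called genes over the wild type were 2.14, 2.23, 2.52 and 2.35 in PCP 1 to PCP 4, 0.84 in PCP 5 and 2.49 in the NovaSeq 6000 wild type. Against that wild type, 11 of 220 genes of the stretch differed in delta PCP (5.0%), close to the 5.35% over all genes. The median longest transcript of the genes tested in the stretch was 2203 bases.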
